A study of Mus musculus with 42 samples.

Results

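The genes described here encode the hyaluronan-based matrix that surrounds brain cells: the link proteins Hapln1 and Hapln4, the lecticans Acan, Vcan, Ncan and Bcan, the tenascins Tnr and Tnc, the hyaluronan synthase Has2, and the receptor phosphatase Ptprz1, whose secreted form is itself a chondroitin sulphate proteoglycan. These 10 of the 52636 genes in the count tables were chosen by name, with earlier results of these same culture libraries known, so their culture values are given as a description. Whether a member passed the threshold in the fit over all genes is stated only to describe it, and no such call is evidence independent of the choice of members. RNA had been sequenced from 9 neuronal cultures of embryonic day 16 forebrain, 3 libraries per genotype, which the labels give as pooled male and female and which the study collected after 12 days in vitro with an agent against dividing glia. The genotypes were euploid, Ts65Dn, which carries a segmental trisomy of the distal part of chromosome 16 and the centromeric part of chromosome 17, and Ts65Dn;Brwd1+/-, which adds to that trisomy 1 disrupted copy of Brwd1 (the repro5 allele), all on a mixed DBA/2J and B6EiC3Sn/J background. Chromatin had been profiled in adult male hippocampus of the same genotypes: SMARCA2/4, the motor subunits of BAF, which remodels nucleosomes, in mice of 6 to 8 weeks (4 immunoprecipitated and 4 input libraries per genotype, hippocampal tissue of 2 animals pooled in each), and open chromatin by ATAC-seq in NeuN+ nuclei (3 libraries per genotype). Each of these assays came as 1 pooled peak list per genotype.

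In this matrix a hyaluronan chain, spun out at the cell surface by a synthase such as Has2, carries lecticans bound at their N-terminal end, and a link protein locks each lectican to the chain. Tenascin-R, the product of Tnr, crosslinks lecticans at their other end. Vcan, Ncan and Tnc are abundant in the developing brain, whereas Acan, Bcan, Tnr and Hapln1 are components of the mature matrix and of perineuronal nets, the dense coats around many parvalbumin interneurons. None of the 10 genes lies on chromosome 16 or 17.

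Link protein and lectican genes are neighbours in the mouse genome (mm10, annotation of GENCODE). Hapln1 (chr13:89539796-89611652, plus strand) and Vcan (chr13:89655312-89742509, minus strand) face each other across 43.7 kb. Hapln4 (chr8:70083457-70090862, plus strand) and Ncan (chr8:70093085-70120873, minus strand) face each other across 2222 bases. Acan (chr7:79053483-79115099, plus strand) ends 2 bases from Hapln3 on the opposite strand, and Bcan (chr3:87987531-88000230, minus strand) lies 21.5 kb from Hapln2 on the same strand. The library kit does not mark strand, so a read that crosses the boundary of Acan and Hapln3 cannot be assigned by strand. Reads within either gene differ by position. Strand likewise does not separate the reads of genes annotated within others on either strand. Of these, Gm8546 in Hapln1 held 272 counts over the 9 libraries, Gm4117 in Vcan 117, 8030451A03Rik in Tnc 110 and Has2os in Has2 29. Tnr (chr1:159523769-159931729, plus strand), Tnc (chr4:63959785-64047015, minus strand), Has2 (chr15:56665627-56694539, minus strand) and Ptprz1 (chr6:22875502-23052916, plus strand) have no such partner among these genes.

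The stretches of the member loci on which the chromatin results turn are printed here, 5′ to 3′ on the strand of the gene and in mm10 coordinates as deposited, because each is a site found in more than 1 list or, for Hapln1, in 1 list only. All lie outside annotated exons. Capitals mark matches to the motifs searched on both strands, which were AP-1 (TGANTCA), the motifs of MEF2 and NFI (palindromic form), an E-box (CANCTG) and the GC box (GGGCGG). None of the matches overlapped each other. The Tnr site is the central 300 bases (chr1:159717054-159717353) of an intronic interval open in all 3 ATAC lists. The Ncan site (chr8:70118810-70118913) and the Hapln4 site (chr8:70087973-70088084) are intronic SMARCA2/4 peaks of the euploid list. The Hapln1 site (chr13:89539229-89539457) is an ATAC peak of the euploid list upstream of the gene, and the Acan site (chr7:79080913-79081051) is the intronic interval shared by the ATAC lists of Ts65Dn and Ts65Dn;Brwd1+/-.
Tnr: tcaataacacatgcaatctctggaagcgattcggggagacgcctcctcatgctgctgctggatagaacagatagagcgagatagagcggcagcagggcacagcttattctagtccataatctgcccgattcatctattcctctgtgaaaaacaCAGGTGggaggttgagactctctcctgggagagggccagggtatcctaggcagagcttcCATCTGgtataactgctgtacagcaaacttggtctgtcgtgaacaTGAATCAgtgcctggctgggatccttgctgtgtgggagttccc
Ncan: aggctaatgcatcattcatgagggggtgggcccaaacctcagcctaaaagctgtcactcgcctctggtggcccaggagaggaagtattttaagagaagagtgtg
Hapln4: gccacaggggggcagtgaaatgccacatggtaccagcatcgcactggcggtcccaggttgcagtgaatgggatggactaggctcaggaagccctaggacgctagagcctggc
Hapln1: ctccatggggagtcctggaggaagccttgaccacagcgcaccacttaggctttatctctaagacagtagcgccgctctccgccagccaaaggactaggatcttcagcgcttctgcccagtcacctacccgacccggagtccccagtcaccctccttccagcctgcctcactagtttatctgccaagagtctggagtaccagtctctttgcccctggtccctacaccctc
Acan: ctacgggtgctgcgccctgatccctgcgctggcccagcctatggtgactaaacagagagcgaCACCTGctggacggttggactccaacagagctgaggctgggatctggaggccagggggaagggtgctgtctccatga

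The Tnr site held 1 AP-1 match and 2 E-box matches. Among 15479 euploid ATAC peaks set to windows of the same length, 8.72% held an AP-1 match and 52.2% an E-box match. The Acan site held 1 E-box match, as did 38.5% of windows of its length in the Ts65Dn ATAC list. None of these letters was found in the Ncan, Hapln4 or Hapln1 windows.

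Total counts in genes ranged from 17270070 to 25892802 per culture library, and 17173 genes passed the filter on low counts. Ts65Dn replicate 3 stood furthest from the others of its genotype in neuronal content: the summed level of 12 neuronal markers was 1076 CPM (read counts scaled to library size) there, against 2334 and 2628 in the other Ts65Dn libraries. Brwd1 itself lay at 85.9 to 93.2 CPM in euploid cultures, at 125 to 129 in Ts65Dn, and at 124 to 146 where the label was Ts65Dn;Brwd1+/-. Its difference between the trisomic genotypes was 0.13 ± 0.08 (log2, SE), with an adjusted p of 0.186 by the quasi-likelihood test of edgeR, which goes against the label, although a count of reads does not tell a mutant transcript from an intact one. The libraries labelled Ts65Dn;Brwd1+/- also held 1409 to 1982 CPM of Xist and 0.0557 to 0.149 CPM summed over 4 Y-linked genes, whereas the other 6 libraries held 0.526 to 1.12 CPM of Xist and 194 to 223 CPM of the Y-linked genes. Sex and genotype therefore cannot be told apart in any comparison with the libraries labelled Ts65Dn;Brwd1+/-, whatever the labels say of pooling.

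**Figure D1:**
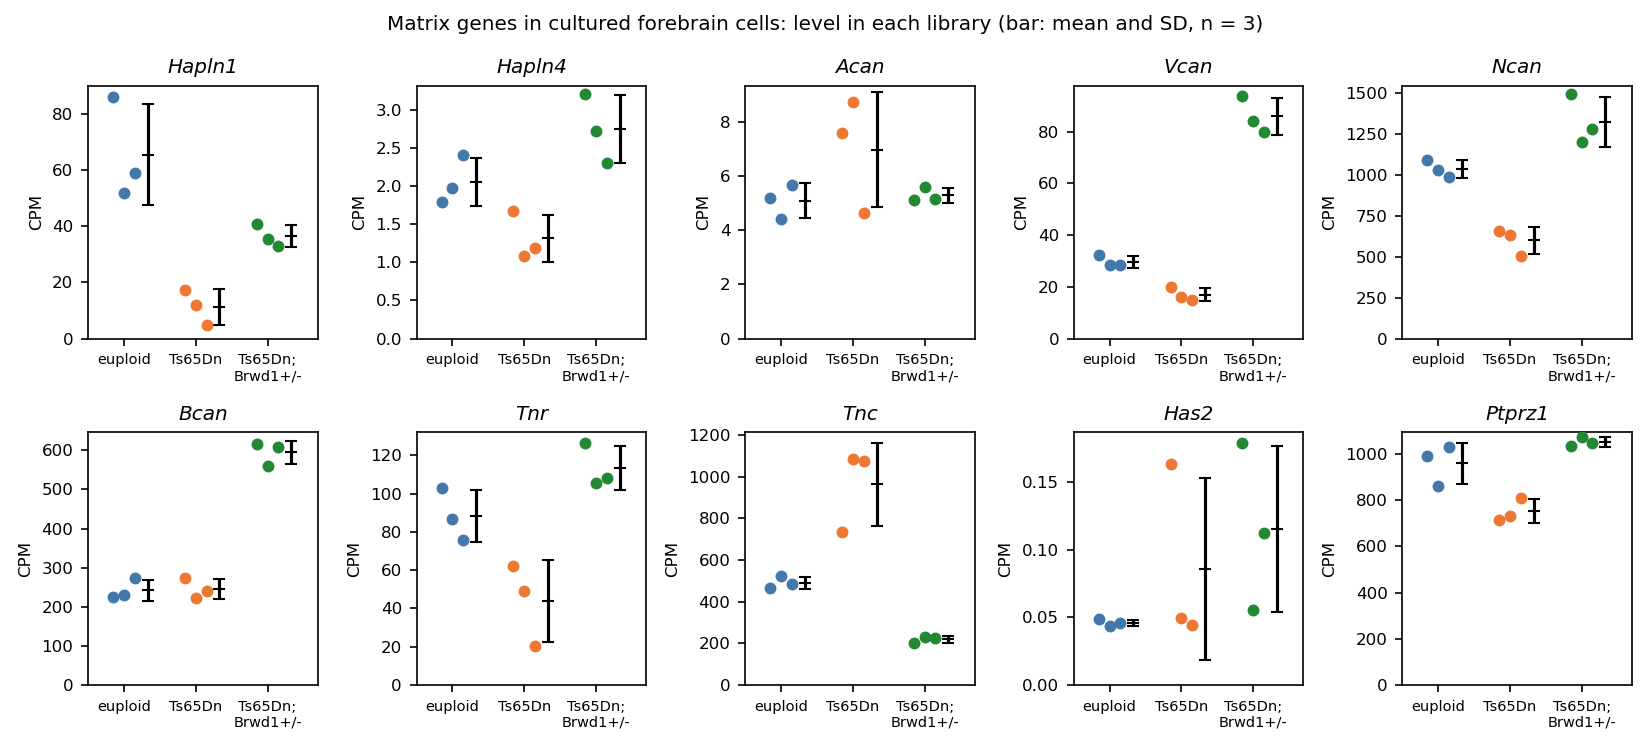
Level of each of the 10 genes in CPM (vertical axis, from 0) in the 3 libraries of each genotype (points), with the mean and SD beside them. Hapln1 lies between 51.7 and 85.9 in euploid and between 4.72 and 17.3 in Ts65Dn cultures, while Tnc runs the other way and Has2 is close to 0 throughout.

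Per kilobase of exon, Ncan was the most abundant of these transcripts in euploid cultures, at 144 ± 7.27 CPM per kb (SD, n = 3). Ptprz1 (67.4), Tnc (63.2) and Bcan (59.5) followed at levels whose ranges overlapped from each to the next. Hapln1 (11.1), Tnr (6.88) and Vcan (2.05) came next and were separated from each other. Acan (0.683) and Hapln4 (0.525) overlapped at the low end, above Has2 (0.0109). In Ts65Dn cultures Tnc stood first, at 124 CPM per kb ± 25.7 (SD, n = 3), above Ncan at 83.3, and Hapln1 had dropped to 1.91, below Tnr at 3.42 but overlapping it. In the libraries labelled Ts65Dn;Brwd1+/- Ncan (184) and Bcan (146) led and Tnc (28.2) was the fourth. With the longest transcript in place of all exons, Bcan stood above Tnc in euploid cultures, Ptprz1 above Ncan and Bcan in Ts65Dn cultures, and Bcan above Ncan, Vcan above Hapln1 and Hapln4 above Acan in the libraries labelled Ts65Dn;Brwd1+/-. The ranges of these pairs overlapped, except those of Ptprz1 and Bcan.

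The first question was how trisomy changed the matrix genes. Of the 9 members with enough counts to be tested, 6 were lower and 1 was higher in Ts65Dn than in euploid cultures at an adjusted p under 0.05 in the fit over all genes. Across all genes tested 46.7% passed, 21.1% of them lower and 25.6% higher, as shares of all genes, and since the members were chosen with this contrast in view nothing is read from their share. The median log2 fold change was -0.63 over the members and 0.04 over all genes. The 3 libraries of the genotypes did not overlap for 7 of 9 members, as for 56.8% of all genes. Without Ts65Dn replicate 3, the library low in neuronal markers, 7 members again passed, Acan in place of Hapln4.

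Among the link proteins, Hapln1 was at 85.9, 51.7 and 58.9 CPM in euploid, 17.3, 11.8 and 4.72 in Ts65Dn, and 40.8, 35.4 and 33.1 in Ts65Dn;Brwd1+/- libraries. Every Ts65Dn library was below every other library, and the lowest was Ts65Dn replicate 3. Hapln1 fell by 2.53 ± 0.36 (log2, SE), or 5.79-fold, from euploid to Ts65Dn, the largest change of any member in that contrast, and its coefficient of variation within Ts65Dn was 55.9%. Without Ts65Dn replicate 3 the change was -2.16 and passed as well. Hapln4, the link protein found at inhibitory synapses on projection neurons of the hindbrain and cerebellum, was scarce: 1.80, 1.97 and 2.41 CPM in euploid, 1.67, 1.09 and 1.19 in Ts65Dn, and 3.21, 2.73 and 2.31 in Ts65Dn;Brwd1+/- libraries, from 22 to 72 counts each. Ts65Dn libraries were again the lowest, by a narrow margin of euploid replicate 1 over Ts65Dn replicate 1. Hapln4 fell by 0.63 ± 0.22 on the log2 scale, a call that was lost without euploid replicate 2 (-0.67), euploid replicate 3 (-0.55), Ts65Dn replicate 2 (-0.52) or Ts65Dn replicate 3 (-0.56).

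Of the lecticans, Ncan, the brain-specific neurocan, was at 1090.4, 1033 and 986 CPM in euploid, 657, 635 and 507 in Ts65Dn, and 1495, 1201 and 1280.3 in Ts65Dn;Brwd1+/- libraries. The 3 genotypes did not overlap. Ncan fell by 0.79 ± 0.12 (log2, SE) in Ts65Dn. Vcan, versican, was at 32.4, 28.2 and 28.2 CPM in euploid, 19.97, 16.1 and 15.0 in Ts65Dn, and 93.6, 83.9 and 79.9 in Ts65Dn;Brwd1+/- libraries. Vcan fell by 0.80 ± 0.12 in Ts65Dn, close to the change of Ncan, and its genotypes did not overlap either.

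Bcan and Acan, both of the mature matrix, gave another picture. Bcan, brevican, was at 224, 229 and 272 CPM in euploid and 273, 221 and 241 in Ts65Dn libraries, which overlapped, with a difference of 0.02 ± 0.11 (log2, SE). That difference turned to -0.000215 with the size factors of DESeq2, so no direction can be given. In the libraries labelled Ts65Dn;Brwd1+/- Bcan was at 615, 560.0 and 609 CPM, above all 6 others. Acan, aggrecan, the lectican that defines most perineuronal nets, was at 5.19, 4.43 and 5.69 CPM in euploid, 7.59, 8.74 and 4.63 in Ts65Dn, and 5.13, 5.62 and 5.15 in Ts65Dn;Brwd1+/- libraries. Ts65Dn replicate 3 fell within the euploid range and the other Ts65Dn libraries above it. Acan did not pass the test in any of the 3 contrasts, with log2 differences of 0.45 ± 0.21, -0.40 ± 0.21 and 0.05 ± 0.21 (SE). Without Ts65Dn replicate 3 it passed in Ts65Dn against euploid (0.68) and in Ts65Dn;Brwd1+/- against Ts65Dn (-0.63).

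The tenascins moved apart. Tnr was at 103, 87.0 and 75.7 CPM in euploid, 62.4, 49.1 and 20.7 in Ts65Dn, and 127, 106 and 108 in Ts65Dn;Brwd1+/- libraries, with no overlap between genotypes and the lowest value in Ts65Dn replicate 3. Tnr fell by 1.01 ± 0.31 (log2, SE) in Ts65Dn. The call was lost without euploid replicate 1 (-0.89) or euploid replicate 2 (-1.02), and without Ts65Dn replicate 3 the change was -0.66 and still passed. Tnc, a tenascin of radial glia and immature astrocytes, was at 466, 521 and 485 CPM in euploid, 734, 1083 and 1077 in Ts65Dn, and 200.4, 231 and 226 in Ts65Dn;Brwd1+/- libraries. Tnc rose by 0.97 ± 0.14 in Ts65Dn and was the only member that passed in that direction.

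Ptprz1, a receptor for Tnr, contactin-1 and pleiotrophin that is made by glial progenitors and astrocytes, was at 992, 860.2 and 1029 CPM in euploid, 715, 733 and 810.0 in Ts65Dn, and 1033, 1074 and 1046 in Ts65Dn;Brwd1+/- libraries. It fell by 0.35 ± 0.09 (log2, SE) in Ts65Dn, the smallest of the changes that passed. Has2 had 1 to 4 counts in each of the 9 libraries, did not pass the filter and was not tested. At this depth a difference in Has2 was not detectable.

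**Figure D2:**
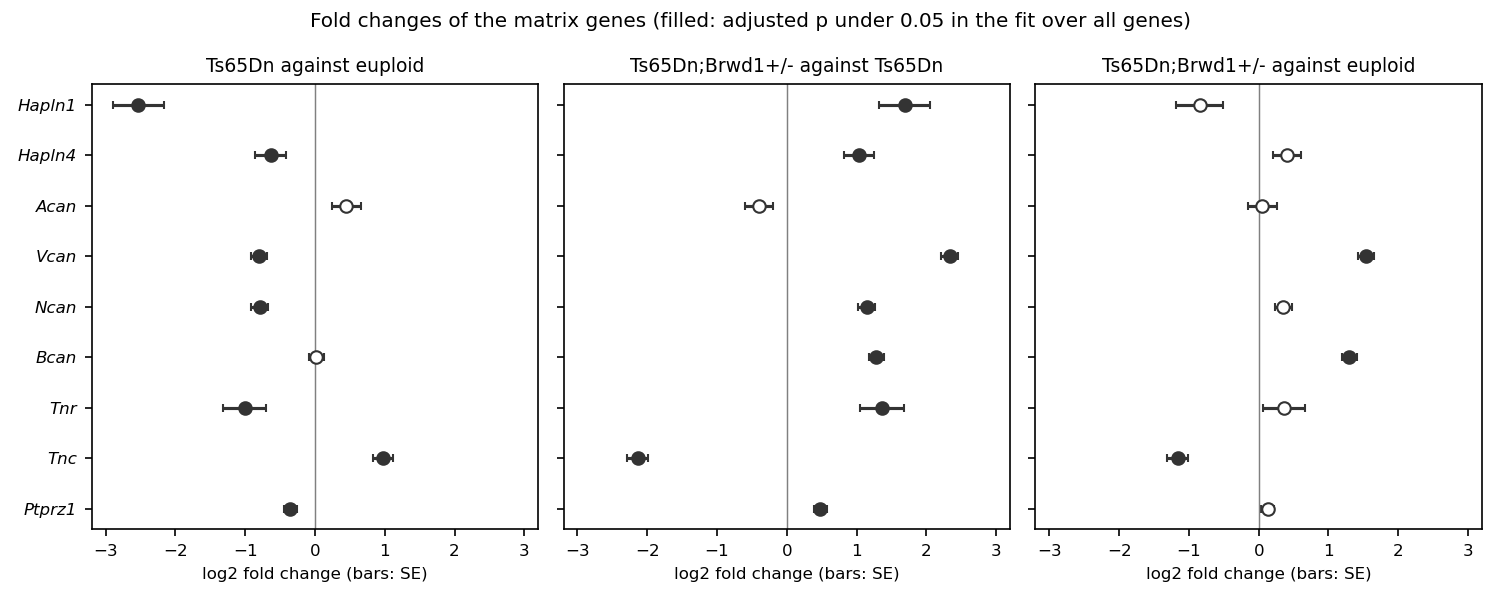
Log2 fold changes of the 9 tested members (horizontal axis) with their SE in 3 contrasts, where filled points passed the test over all genes. In Ts65Dn against euploid 6 filled points lie left of 0 and Tnc right of it, and in Ts65Dn;Brwd1+/- against Ts65Dn 7 lie right of 0 and Tnc left of it.

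The second question was whether these genes differed between the trisomic genotypes. In the libraries labelled Ts65Dn;Brwd1+/- 7 of 9 tested members were higher and 1 was lower than in Ts65Dn, where 58.1% of all genes passed, 27.6% higher and 30.5% lower. The libraries of these genotypes did not overlap for 8 of 9 members and for 68.4% of all genes. Vcan rose by 2.33 ± 0.12 (log2, SE), or 5.04-fold, Hapln1 by 1.69 ± 0.36, Tnr by 1.36 ± 0.31, Bcan by 1.28 ± 0.11, Ncan by 1.14 ± 0.12, Hapln4 by 1.04 ± 0.22 and Ptprz1 by 0.48 ± 0.09. Tnc fell by 2.14 ± 0.15 on the log2 scale, or 4.40-fold. Both contrasts use the Ts65Dn libraries, so their values stand side by side here and are not independent of each other. The 7 members that passed in both, in opposite directions, were Hapln1, Hapln4, Vcan, Ncan, Tnr, Tnc and Ptprz1, and 36.5% of all genes did the same.

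Against euploid, 3 of 9 tested members passed in the libraries labelled Ts65Dn;Brwd1+/-, where 29.2% of all genes did, and libraries did not overlap for 7 of 9 members and 45.9% of all genes. Vcan was higher by 1.54 ± 0.11 (log2, SE) and Bcan by 1.30 ± 0.11, and Tnc was lower, at -1.16 ± 0.14. Hapln1 stood at -0.85 ± 0.34, below euploid in each library, without passing. It passed without a filter on low counts, with only the 2 genotypes and with a replicate block. It also passed without Ts65Dn replicate 1 or 3, which enter through the shared spread, and the number of members that passed was then 5 or 6, Ncan being among them in each case and Tnr without replicate 3. Ncan (0.35 ± 0.12), Tnr (0.36 ± 0.30), Hapln4 (0.41 ± 0.20), Ptprz1 (0.13 ± 0.09) and Acan did not pass. Ncan lay close to the threshold: at 0.35 to 0.36 it passed with upper quartile scaling, by the Wald test of DESeq2, without a filter on low counts, with at least 10 counts in every library, with only the 2 genotypes, and with a replicate block. Tnr also passed with only the 2 genotypes.

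Cell type markers moved with these genes. The summed level of 12 neuronal markers was 4019 to 4992 CPM in euploid cultures, 1076 to 2628 in those of Ts65Dn, and 4317 to 5327 in those labelled Ts65Dn;Brwd1+/-, and 9 of the 12 markers were lower in Ts65Dn. Those of 12 GABAergic interneuron markers were 590 to 649, 137 to 235 and 1019 to 1128 CPM, and all 12 were lower in Ts65Dn and higher in Ts65Dn;Brwd1+/- than in Ts65Dn. In bulk cultures, fewer cells of a type and less RNA per cell cannot be told apart. Radial glia markers, led by Vim, summed to 3630 to 4292, 6489 to 8410 and 2860 to 3280 CPM, the order in which Tnc ran, with 7 of 12 higher and 4 lower in Ts65Dn. Much of that sum was Vim, which averaged 2716, 5733 and 1537 CPM, so the order of the sum leans on 1 gene. In Ts65Dn;Brwd1+/- cultures 4 of these markers were higher and 5 lower than in Ts65Dn, and 4 were higher and 3 lower than in euploid. Oligodendrocyte lineage markers summed to 357 to 409, 598 to 697 and 926 to 1112 CPM, highest where Bcan and Vcan were highest, and the progenitor gene Pdgfra averaged 18.9, 14.7 and 128 CPM. Astrocyte markers summed to 3746 to 4590, 4323 to 4989 and 4316 to 4869 CPM, with 5 of 11 tested higher and 2 lower in Ts65Dn. Fibroblast and meningeal markers summed to 133 to 173, 324 to 449 and 139 to 178 CPM, with 7 of 11 tested higher and 4 lower in Ts65Dn. Microglial markers stayed between 18.4 and 55.0 CPM, with 1 of 8 tested higher and 2 lower in Ts65Dn. The endothelial and pericyte list summed to 84.5 to 95.0, 662 to 871 and 89.8 to 132 CPM, with 3 of 7 tested (Kdr, Anpep and Vtn) higher and none lower in Ts65Dn. Nearly all of that sum was Kdr, which averaged 83.1, 755 and 112 CPM. Pecam1 averaged 0.768, 0.443 and 0.739 CPM, Flt1 1.55, 1.24 and 0.539 CPM, and Cldn5 had no count in any library. The glutamatergic list summed to 1202 to 1557, 354 to 813 and 1190 to 1614 CPM, with 10 of 12 markers lower in Ts65Dn. The part of these shifts in the matrix genes was not tested.

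**Figure D3:**
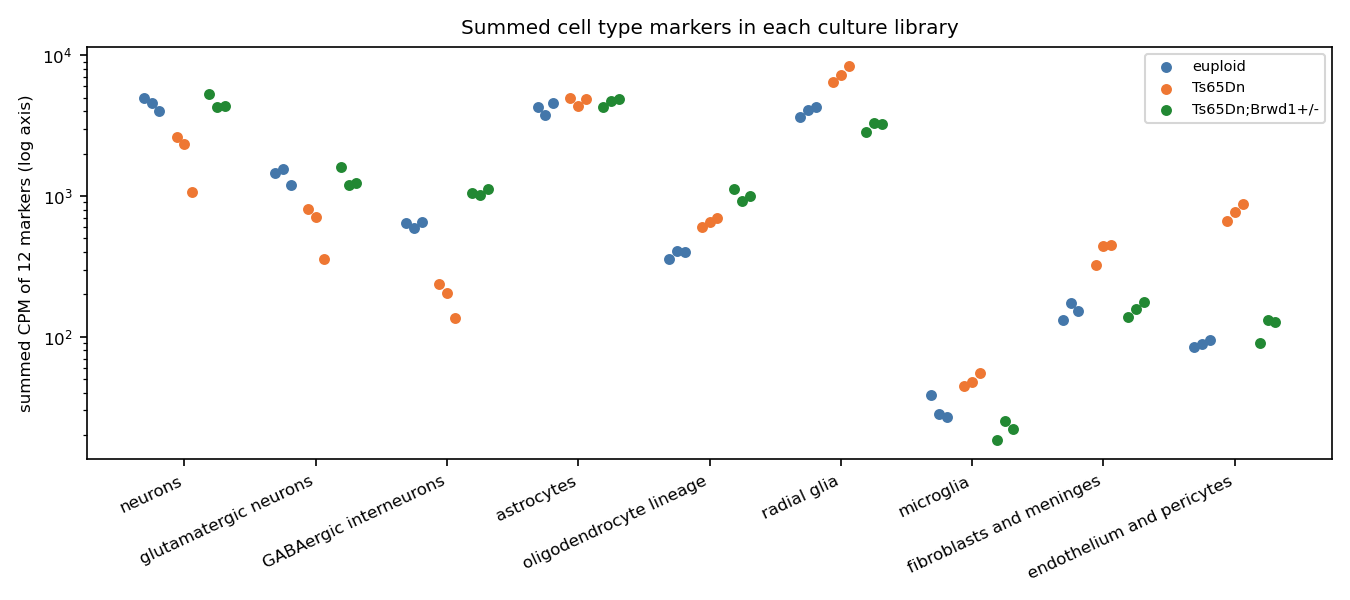
Summed CPM of 12 markers per cell type (log axis) in each of the 9 culture libraries, coloured by genotype. Neuronal and interneuron sums are lowest in Ts65Dn, radial glia sums are highest there, and oligodendrocyte lineage sums are highest in Ts65Dn;Brwd1+/- cultures.

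Set against the neuronal sum of the same library, a ratio chosen after the values were seen, the members separated. Hapln1 was 1.12 to 1.72% of the neuronal sum in euploid, 0.439 to 0.659% in Ts65Dn and 0.757 to 0.820% in Ts65Dn;Brwd1+/- cultures, so Ts65Dn stayed below both other genotypes. Tnr was 1.88 to 2.06% in euploid and 1.92 to 2.37% in Ts65Dn cultures, which overlapped. Ncan was 21.8 to 24.5% in euploid and 24.99 to 47.1% in Ts65Dn cultures, and Ptprz1 18.7 to 25.6% and 27.2 to 75.3%, so both members, lower in Ts65Dn by CPM, were higher there in every library on this scale. Vcan (0.614 to 0.702% and 0.688 to 1.395%) and Hapln4 (0.0360 to 0.0600% and 0.0466 to 0.111%), also lower by CPM, overlapped. Acan (0.0963 to 0.142% and 0.289 to 0.431%), Bcan (4.49 to 6.78% and 9.49 to 22.4%) and Tnc (9.33 to 12.1% and 27.9 to 100.1%) were higher in every Ts65Dn library. The divisor itself was lower in Ts65Dn cultures, so a ratio to it rises for any gene that fell less than the neuronal sum. Hapln1 was the only one of the 10 members that was lower in every Ts65Dn library than in every euploid library on this scale.

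The nearest genes by profile, taken as the root mean square difference of centred log2 CPM over the 9 libraries, differed from member to member. Nearest to Hapln1 were Hcrtr2 (an orexin receptor), Crhbp, Fam171b, Gm31218 and Zdhhc22, at distances of 0.15 to 0.33 where the median over all genes was 1.26. Nearest to Vcan was Sox11, a transcription factor of immature neurons, at 0.074, followed by Tmem267, Arl4d, Trp53i11 and Rimbp3. Nearest to Ncan were Unc79, Plxna2, Kcnc1, Kcnh2 and Dpf1, at 0.053 to 0.078, and nearest to Tnr were Phactr1, Gng7, Plppr1, Pak7 and Gnal. Nearest to Tnc were Sema3d, Ror1, the small proteoglycan Fmod, the matrix protein Npnt and the proteoglycan Bgn, at 0.10 to 0.11. Bcan was nearest to Gpd1, Map3k1, Ppp1r14b, Nmral1 and Tshz1, and Ptprz1 to Rnf24, Eml4, Amer1, Plpp3 and Rftn2. Hapln4 was nearest to 4833422C13Rik, Trpc7, Snx29, Hhipl1 and Cyth1, and Acan to Gm49493, Gm12655, Lurap1, Stbd1 and Gm44168. Among the members themselves the closest pair was Hapln4 and its genomic neighbour Ncan, at 0.22, while Hapln1 and its neighbour Vcan lay 1.09 apart and Hapln1 and Tnc, the most distant pair, 1.90.

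The rest of the pathway was followed through lists that were written with earlier results of these libraries known. Of 97 tested genes, 39 were higher and 23 lower in Ts65Dn than in euploid cultures, with a median log2 fold change of 0.17, where 25.6 and 21.1% of all genes were. In the libraries labelled Ts65Dn;Brwd1+/- 31 were higher and 39 lower than in Ts65Dn, where 27.6 and 30.5% of all genes were, with a median of -0.14 against 0.00046 over all genes. The shares of all genes apply to each list that follows, and nothing particular to a list is read from a count near them. All calls that follow are at an adjusted p under 0.05 by the quasi-likelihood test of edgeR, adjusted over all 17173 genes.

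For the remaining link proteins, Hapln2 had 2 to 12 counts per library and was not tested, and Hapln3 differed by -0.19 ± 0.17 (log2, SE) in Ts65Dn against euploid and rose by 0.81 ± 0.16 in Ts65Dn;Brwd1+/- against Ts65Dn. Among 8 tested genes of hyaluronan synthesis and turnover, 5 were higher and 1 lower in Ts65Dn. The lower gene was Has3, another hyaluronan synthase, which fell by 0.75 ± 0.21 and rose by 0.84 ± 0.21 in Ts65Dn;Brwd1+/- against Ts65Dn. The hyaluronan-depolymerising protein Cemip rose by 1.03 ± 0.17 in Ts65Dn and fell by 2.12 ± 0.17 in Ts65Dn;Brwd1+/- against Ts65Dn. The hyaluronidases Hyal1 (0.42) and Hyal2 (0.44) were higher in Ts65Dn and lower, at -0.79 and -0.23, in Ts65Dn;Brwd1+/- than in Ts65Dn, and Cemip2 was higher in both contrasts (0.35 and 0.23). Of 6 tested hyaluronan receptors and binders, 4 were higher and 1 was lower in Ts65Dn. Cd44, the main hyaluronan receptor, rose by 1.16 ± 0.14 and then fell by 1.51 ± 0.14. Itih5, of the inter-alpha-trypsin inhibitor heavy chains that bind hyaluronan, rose by 1.45 ± 0.11 and fell by 0.88 ± 0.11. Itih3 was higher in Ts65Dn (0.46) and differed by -0.22 without passing in the second contrast, and Stab1, a scavenger receptor of macrophages, was lower in both contrasts (-0.93 and -1.53).

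The enzymes that build and sulphate chondroitin chains moved in both directions. Of 14 tested genes of chain synthesis 2 were higher and 2 lower in Ts65Dn, with a median of 0.02, and in Ts65Dn;Brwd1+/- against Ts65Dn 4 were higher and 6 lower. Chsy3, a chondroitin synthase, fell by 1.38 ± 0.21 and rose by 1.59 ± 0.21. Xylt1, which starts the chain, was lower (-0.45) and then higher (1.00), whereas its relative Xylt2 (0.27 and -0.19) and the epimerase Dsel (0.54 and -1.06) ran the other way. The epimerase Dse differed by 0.24 without passing and then fell (-0.74). Of 11 tested sulphation genes 3 were higher and 1 lower in Ts65Dn, and 3 each were higher and lower in Ts65Dn;Brwd1+/-. Chst3, a 6-O-sulphotransferase, rose by 1.06 ± 0.13 in Ts65Dn;Brwd1+/- after a difference of -0.29 that did not pass, while the 4-O-sulphotransferases Chst12 (-0.63 and 0.47) and Chst14 (0.33 and -1.10) ran in opposite directions. Chst15 (0.51 and -0.82) and the sulphate transporter Slc26a2 (0.49 and -0.68) followed Chst14.

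Proteases and their inhibitors were mostly higher in Ts65Dn. Of 16 tested, 14 were higher, against 25.6% of all genes, and 1 was lower, with a median log2 fold change of 0.58, and in Ts65Dn;Brwd1+/- against Ts65Dn none was higher and 12 were lower, with a median of -0.88. Mmp2, a gelatinase, rose by 3.96 ± 0.20 and fell by 4.78 ± 0.21, at mean levels of 9.45, 148 and 5.40 CPM in the 3 genotypes. The inhibitor Timp1 rose by 2.52 ± 0.31 and fell by 2.92 ± 0.33, and its relative Timp2 was higher (0.36) and then lower (-0.79), as was the lectican-cleaving protease family member Adamts9 (0.27 and -0.48). Mmp9, which has been linked to perineuronal net remodelling, was the lower gene (-1.08) and differed by 0.39 without passing in the second contrast.

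Of 16 tested receptors and ligands of the proteoglycans, 5 were higher and 5 lower in each of these contrasts, near the shares over all genes. Mdk, the growth factor midkine that binds chondroitin sulphate, rose by 1.90 ± 0.12 and fell by 1.43 ± 0.12, and the integrin subunit Itgav did likewise (1.76 and -1.57). The neuronal adhesion molecule L1cam (-1.53 and 1.30) and the Nogo receptor family member Rtn4rl2 (-1.48 and 1.31) ran the opposite way. Of 15 other proteoglycans and matrix glycoproteins, 5 were higher and 7 lower in Ts65Dn, and 9 were higher and 5 lower in Ts65Dn;Brwd1+/- against Ts65Dn. Dcn, decorin, fell by 3.23 ± 0.27 and rose by 4.17 ± 0.26, Reln, the glycoprotein reelin, was lower (-1.52) and then higher (1.48), and Fn1, fibronectin, was higher (1.42) and then lower (-2.12), as was Bgn (1.06 and -2.08). Cspg4, the NG2 proteoglycan of oligodendrocyte progenitors, rose in both contrasts, 2.64-fold and then 2.40-fold. Of 10 genes of neurons that carry perineuronal nets, 5 were lower and 1 was higher in Ts65Dn. The potassium channels Kcna1 (-1.14 and 1.14) and Kcna2 (-1.04 and 1.15) were lower and then higher, whereas Pvalb, present at means of only 1.36, 3.53 and 0.480 CPM, was higher (1.39) and then lower (-2.88), and Erbb4, at 0.09 without passing in the first contrast, rose in the second (0.49).

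**Figure D4:**
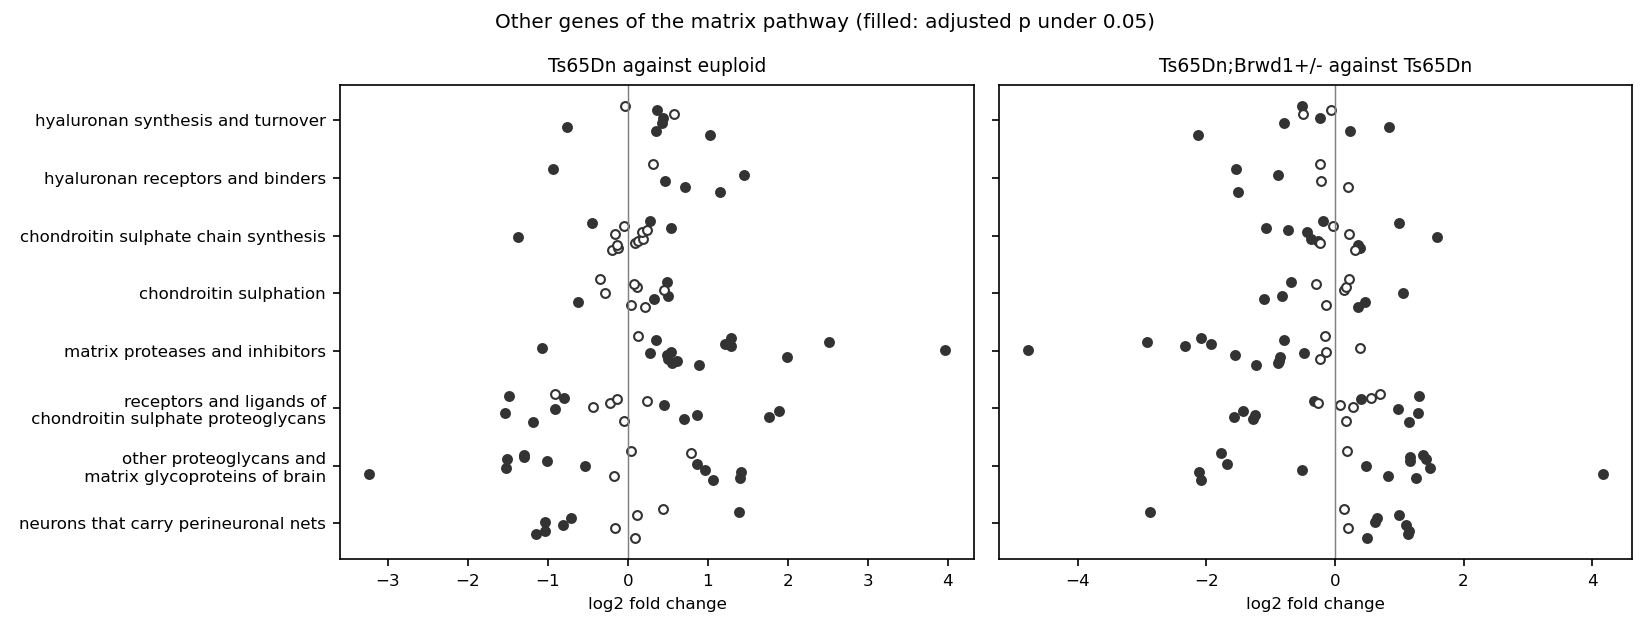
Log2 fold changes (horizontal axis) of the tested genes of 8 pathway lists in 2 contrasts, 1 point per gene, filled where the test was passed. Most genes of matrix proteases and inhibitors lie right of 0 in Ts65Dn against euploid and left of 0 in Ts65Dn;Brwd1+/- against Ts65Dn.

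The peak lists asked whether chromatin at these loci differed in the adult hippocampus, a tissue and an age other than those of the cultures. Peaks named 6 of the 10 genes in at least 1 list, and none of the 6 lists named Vcan, Bcan, Tnc or Has2. Replicates were pooled within each list, so counts of peaks come without an error. The lists also differ in size: the SMARCA2/4 lists held 22667, 1290 and 1873 peaks and the ATAC lists 15521, 29195 and 30244 peaks in euploid, Ts65Dn and Ts65Dn;Brwd1+/- mice.

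In the euploid SMARCA2/4 list 8 peaks named 4 members, where 38.6% of the genes tested in culture were named. Ncan had 4 of them, 3 with centres 1.57 to 2.01 kb downstream of its start, and the strongest of these, the Ncan site printed above, had a fold enrichment of 4.69 (q = 2.21e-05), at the 90.6th percentile of its list. Hapln4 had 2 peaks in its gene body, with fold enrichments of 3.82 and 3.77. Ptprz1 had 1 peak across its start (3.98) and Tnr 1 in its gene body (3.70). The Ts65Dn list, in which 4.14% of tested genes were named, held 1 member peak, in Tnr 9.5 kb from the start, with a q-value of 0.293. The Ts65Dn;Brwd1+/- list, in which 4.89% were named, held none. With shares of named genes this low over the whole of both lists, nothing about the members is read from their absence there.

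Of the 8 euploid SMARCA2/4 peaks, 3 overlapped an ATAC peak of euploid and 6 one of Ts65Dn by at least 1 bp, but 2 one of Ts65Dn;Brwd1+/-. Over the whole list 26.5, 44.7 and 44.1% of peaks did so. The Ncan site lay in an ATAC peak in all 3 genotypes, with fold enrichments of 2.65, 3.80 and 2.56. The Hapln4 site lay in an ATAC peak of the Ts65Dn list (3.12), and neither other ATAC list named Hapln4.

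**Figure D5:**
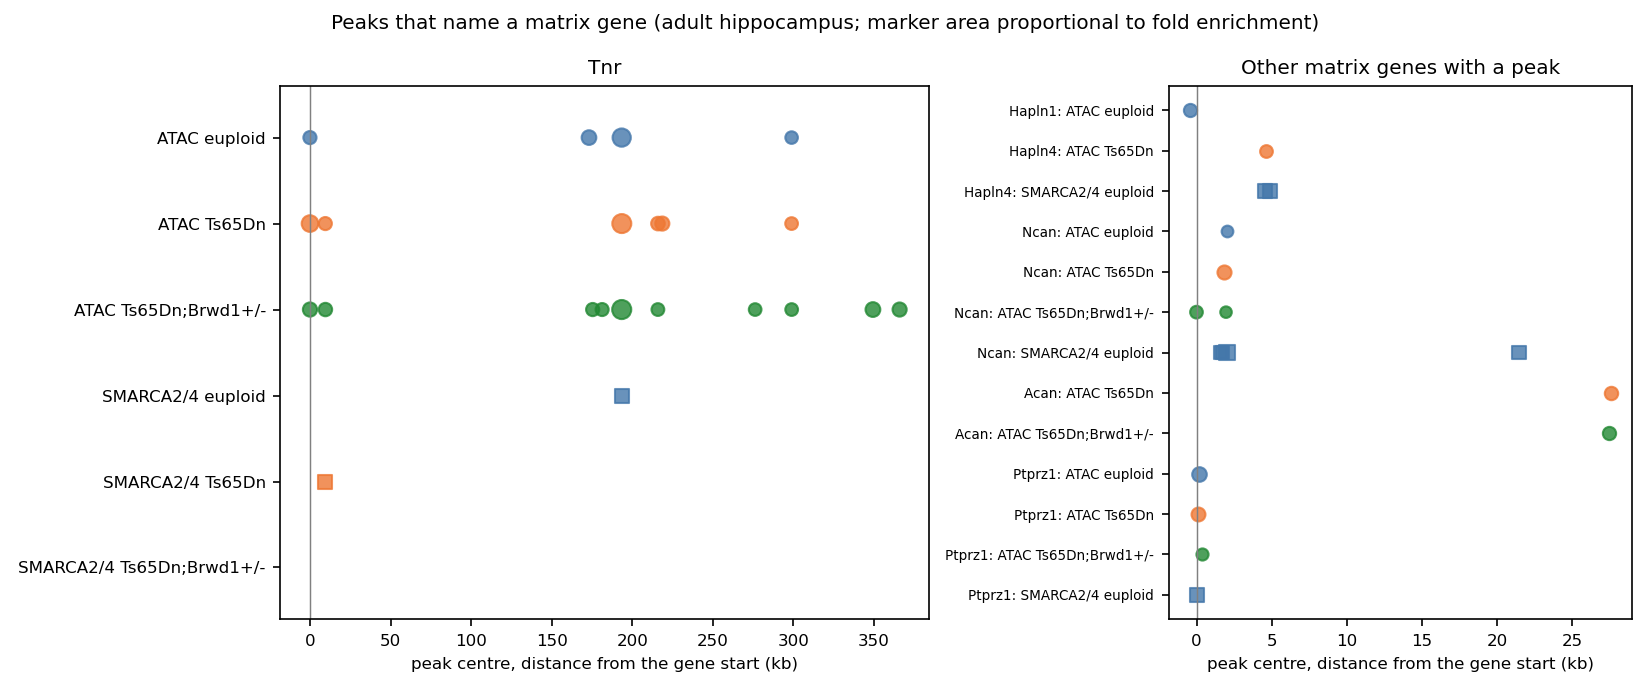
Position of each peak that names a member, as the distance of its centre from the start of the gene in kb (horizontal axis), by assay and genotype, with circles for ATAC, squares for SMARCA2/4 and marker area in proportion to fold enrichment. The ATAC site near 193 kb in Tnr appears in all 3 genotypes with the SMARCA2/4 peak of euploid mice beside it.

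Open chromatin was most extensive in Tnr, the longest of the loci. Euploid mice had 4 ATAC peaks there, Ts65Dn mice 6 and Ts65Dn;Brwd1+/- mice 10, in lists of unequal length. The site printed above was the strongest in each, with fold enrichments of 6.38, 6.93 and 7, at the 93.3rd, 92.5th and 97.8th percentile of its list. The euploid SMARCA2/4 peak of Tnr (chr1:159717424-159717616) overlapped the end of this interval by a few bases in euploid mice. The promoter of Tnr was open in all 3 lists (3.32, 5.32 and 3.86), and so was a site 299 kb into the gene. A site 9.5 kb from the start was in the Ts65Dn and Ts65Dn;Brwd1+/- lists but not in the euploid list. Gm10530 is annotated within Tnr and takes the name of some peaks there.

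The start of Ptprz1 lay in an ATAC peak of the euploid and Ts65Dn lists (fold enrichments of 4.10 and 3.72). The Ts65Dn;Brwd1+/- peak (2.82) overlapped both of those but did not reach the start, with its centre 0.36 kb downstream. The Ncan start was in the Ts65Dn;Brwd1+/- ATAC list only (3.11), and the Acan site printed above was in the Ts65Dn (3.44) and Ts65Dn;Brwd1+/- (3.38) lists. The Hapln1 site, whose centre lies 0.453 kb before the start of the gene, was in the euploid list only, with a fold enrichment of 3.35 at the 21.0th percentile (q = 1.13e-06). Of the 15521 euploid ATAC peaks, 249 (1.60%) overlapped no peak in either other list, among them a second member peak, in Tnr (chr1:159696776-159696996, fold enrichment 4.13). Whether the difference at Hapln1 exceeds the spread between animals cannot be told from pooled lists. The ATAC lists named 4, 5 and 4 of the members in euploid, Ts65Dn and Ts65Dn;Brwd1+/- mice, against 53.3, 66 and 65.6% of all tested genes.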

How the data were processed

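The 10 members and all gene lists were chosen with earlier results of these data known. The authors aligned reads to mm10 with HISAT2 and deposited raw read counts per gene, 1 file for each of the 9 culture libraries. Each file holds 52636 gene lines and 5 summary lines, which took 37.4 to 40.0% of counts and were left out. The study names featureCounts, whereas those lines are in the form of htseq-count, and use of strand in counting is not given in the sources used here. The authors deposited 1 peak list per assay and genotype (MACS2, replicates pooled), giving each peak its fold enrichment, a linear ratio, and its q-value. The stated limits (q-value under 0.05, fold over 1.2) hold for 87.8, 31.8 and 58.2% of the SMARCA2/4 peaks and 100% of ATAC peaks. Depth of these libraries is unknown. Of 27973 transcripts named in the lists, 26684 have the same start and end in the annotation, and peak coordinates were used as deposited, with the count of bases from 0 or 1 not settled.

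Genes were kept by filterByExpr (17173), scaled by TMM and fitted over all 9 libraries with genotype as factor in edgeR 4.0.16 (quasi-likelihood F-test, R 4.3.3). P-values were adjusted by the Benjamini-Hochberg method over all genes, with a threshold of 0.05. The SE is the log2 fold change divided by the root of F. CPM used TMM-scaled library sizes over the tested genes, and profile distances used log2 CPM with a prior count of 2. Motif shares used peaks of the same list set to the printed length around their centre. Sequence was read from the RefSeq copy of the mouse genome (GRCm38.p6, the build of mm10). The fit was tested on simulated counts with 200 changed genes and the same spread for every gene. Far more genes passed in the real data, so that test does not cover scaling or error rates there. Peaks were intersected with bedtools 2.31.1. The study's methods describe cortices dissociated embryo by embryo, with a tail of each taken for genotyping, and molecular samples kept separate by animal, whereas the labels give the culture libraries as pooled male and female. Which embryos or litters made up each library is not given in the sources used here, and p-values measure the spread between libraries. Pecam1, Flt1, Anpep and Vtn were named after their values were seen. Same-numbered Ts65Dn and euploid libraries deviated together (r = 0.13, 0.21 and 0.26 across genes, which are not independent), so a replicate block was tried as an alternative. DESeq2 1.42.0, other scalings, filters, peak limits and omission of each library were alternatives too. Named genes were the members, Brwd1, Hapln2, Hapln3, from each other pathway list the 2 highest and 2 lowest log2 fold changes that passed in Ts65Dn against euploid and in Ts65Dn;Brwd1+/- against Ts65Dn, and the 5 nearest profiles of each member. The values of 1 gene that this rule names are not reported here. Of the cell type markers, those at 0 or most abundant were named, and Pdgfra was chosen after its values were seen.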

Additional observations from a re-analysis of the deposited data

How the results depend on the processing

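Members that passed in Ts65Dn against euploid numbered 7 under every alternative scaling, test, filter and sample choice run and 5 to 7 with 1 library left out. In Ts65Dn;Brwd1+/- against Ts65Dn they numbered 8, and 8 to 9. Against euploid, the 3 members rose to 4 with upper quartile scaling, the DESeq2 Wald test or at least 10 counts in every library, to 5 with no filter on low counts, to 6 with only the 2 genotypes compared, to 5 with a replicate block and to 3 to 6 with 1 library left out. The replicate block moved no other count of calls by more than 1.5 times (62 to 68 and 70 to 74 pathway genes). It changed no call of a member in Ts65Dn against euploid, where same-numbered libraries deviated together, although no label says that they belong together. Same-numbered libraries gave r = 0.28, -0.12 and 0.21 in Ts65Dn;Brwd1+/- against Ts65Dn and 0.10, -0.16 and 0.19 against euploid, so no pairing is taken there.

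Differences close to 0 changed sign. Bcan in Ts65Dn against euploid gave -0.000215 with DESeq2 size factors, -0.000149 with the DESeq2 Wald test, -0.0163 without a filter, -0.0207 with at least 10 counts in every library, -0.0129 with only the 2 genotypes, and -0.0642 to 0.0885 with 1 library left out. In Ts65Dn;Brwd1+/- against euploid, Kcna1 gave -0.00950 with DESeq2 size factors, -0.00802 with the Wald test, -0.00912 without a filter, -0.00568 with the 2 genotypes, and -0.125 to 0.0777 with 1 library left out. Leaving out 1 library also gave a range across 0 in that contrast for Acan (-0.0424 to 0.0942), Has3 (-0.0443 to 0.136), Rtn4rl2 (-0.554 to 0.0499), Reln (-0.122 to 0.00361) and Kcna2 (-0.00691 to 0.188), and in Ts65Dn against euploid for Erbb4 (-0.0385 to 0.247). The cause was not tested.

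Peaks that name a member in the euploid SMARCA2/4 list fell from 8 to 5 at a q-value under 0.01 and fold enrichment over 2, and were 11 distinct peaks when those within the genes or 10 kb around them counted. For the Ts65Dn list the 1 peak became 0 at both stricter limits and 2 by position, and for the Ts65Dn;Brwd1+/- list 0 became 1 by position. Has2 and Hapln2 had too few counts, and Hapln4 few enough that single libraries decide its call.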
